A study of Mus musculus with 10 samples.

Results

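Neurod2 ganglion cells were RGCs chosen by the transcript of Neurod2, a neuronal bHLH transcription factor gene. A cell was counted when it held at least 2 Neurod2 UMIs and at least 1 Neurod2 UMI per 10000 of its UMIs. It also had to hold under 1 UMI per 10000 of each of Opn4, Eomes, Foxp2 and Tbr1 and under 3 per 10000 of Cartpt, which mark other RGC groups. The rule found 65 cells among 2871 distinct cells, and all 65 came from uninjured retinas (65 of 1683 cells), with 0 of 1188 injured cells. These 6 genes chose the cells, so their levels in the chosen cells are given as a description without a test.

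The cells came from wild-type 129S1/SvImJ mice at 12 weeks of age, for which the labels state both sexes. Each batch pooled 10 retinas, and RGCs were caught by Thy1 immunopanning, which binds a surface protein of RGCs, before 10X droplet capture. Macrophages had been removed by immunopanning beforehand per the labels, and the study's methods add amacrine cells to what was removed. There were 6 uninjured libraries and 4 libraries taken 2 weeks after optic nerve crush (ONC), a lesion that cuts RGC axons while the retina stays in place. The labels name no further treatment, and no source used here says that the libraries came from separate cohorts of animals, so p-values measure the spread between these samples, which may be technical. Injured 3 and 4 shared 421 barcodes, and any other pair of libraries shared at most 1, so the shared barcodes were dropped from injured 4 and its remaining 50 cells were summed with injured 3 as injured 3/4.

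RGCs are the output neurons of the retina and fall into many types that differ in dendrites, responses to light and targets in the brain. Transcription factors such as those of the bHLH family are used to tell these types apart. The bHLH factors act as dimers on DNA, and the Neurod group is known for driving and keeping neuronal differentiation. In the GENCODE annotation of mm39, Neurod2 is a protein-coding gene at 98216241 to 98220480 of chromosome 11, reverse strand.

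Levels are given as CPM, counts scaled to 1000000 UMIs with TMM factors, or as raw CPM, the same without factors. Total UMIs per sample ranged from 2839693 to 23180399 in uninjured and from 4698799 to 9283089 in injured RGCs. The median UMIs per cell were 27816 in uninjured and 14079 in injured RGCs, so injured cells were shallower. The injured samples also differed from the uninjured ones in reporter and sex-linked transcripts. The mCherry transcript was at 79.5 raw CPM in injured 1, 343 in injured 2 and 2107 in injured 3/4, and at 0 in every uninjured library. Xist was detected in 62.1% of cells of injured 1 and 67.4% of injured 2, and in at most 0.520% of cells of any other sample. Their part in the differences between conditions was not tested.

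The chosen cells carried the transcripts that define RGCs. Rbpms, which encodes an RNA-binding protein used as a pan-RGC marker, stood at 734 ± 85.3 CPM (SD, n = 4 libraries) in Neurod2 cells and 740 ± 90.7 in the other cells. Slc17a6, the vesicular glutamate transporter of RGCs, passed the same threshold as used for Neurod2 in 100% of Neurod2 cells in each of the 4 libraries with at least 5 such cells. The cells were as deep as or deeper than their neighbours, with a median of 34425 UMIs per cell against 27598 in other uninjured cells. The label of ganglion cell thus held for this set by its markers, while the set was not uniform, as described further on.

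Among the markers of other retinal classes, those of amacrine cells, the inhibitory interneurons of the inner retina, were the ones that stood higher in every library. The summed level of the 17 amacrine markers was 953 to 1644 raw CPM in Neurod2 cells and 674 to 1108 in the other cells, higher in 4 of 4 libraries. UMIs of at least 3 of these markers were found in 89.2% of Neurod2 cells and 64.6% of other uninjured cells. The sum was carried by Meis2, at 892 raw CPM against 259, and by Pax6, at 405 against 336, both transcription factor genes. Slc6a5, Chat, Slc18a3 and Th were at 0 in Neurod2 cells, and Tfap2b was at 7.43 against 38.5 and Gad1 at 12.7 against 41.8 raw CPM. Gad2, which like Gad1 encodes a GABA-synthesising enzyme, was at 39.8 against 33.9. A core set of 8 of the 17 was Gad1, Gad2, Slc32a1, Slc6a9, Slc6a5, Tfap2a, Tfap2b and Tfap2c. Of the 65 cells, 4 (6.15%) held at least 3 of these 8, against 12.7% of the other uninjured cells. No Neurod2 cell held 3 or more bipolar, photoreceptor, horizontal, microglial or vascular markers, and 46.2% held 3 or more of the glial list against 41.8% of the others. Only 7 of the 65 cells stay when cells with 3 or more amacrine markers are left out.

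The 65 cells held 381 Neurod2 UMIs, from 2 to 13 per cell with a median of 6. This was 1.02 to 3.41 per 10000 UMIs with a median of 1.60. The 3 cells just inside the threshold stood at 1.02, 1.02 and 1.02 per 10000 and the 3 just outside at 0.992, 0.987 and 0.954. In the 4 libraries with at least 5 members, Neurod2 was at 163, 167, 229 and 187 CPM in Neurod2 cells of uninjured 3, 4, 5 and 6, and at 10.6, 18.3, 8.11 and 7.19 CPM in the other cells. Of the genes used to exclude cells, Opn4 (melanopsin) had 0 UMIs in the 65 cells, Foxp2 had 10, Eomes 7 and Tbr1 4. Cartpt, a neuropeptide precursor gene, was at 108 raw CPM against 648 in other uninjured cells, and 32 of the 65 cells held at least 2 UMIs and 1 per 10000 of it, which the rule permits.

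The 65 cells held 37.8% of the Neurod2 UMIs of uninjured RGCs. A further 49 uninjured cells were over the Neurod2 threshold but were left out by the other genes, 35 of them by Cartpt alone, 8 by Foxp2 and 6 by Eomes, with or without Cartpt. Neurod2 thus occurred in RGCs beyond the chosen set. Of 56 Opn4-positive cells 0 held a Neurod2 UMI, at a median of 30178 UMIs per cell, which allows up to 5.36% of such cells to hold one. Of 44 Tbr1-positive cells 2 held one, at a median of 27780. Among Cartpt-positive cells 90 of 423 (21.3%) held one, at a median of 29697. The rule used these genes, so the shares are a description. Positive here means at least 2 UMIs and at least 1 per 10000, or 3 per 10000 for Cartpt.

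Neurod2 cells were found in each uninjured library. They numbered 2 of 98 cells in uninjured 1, 3 of 103 in uninjured 2, 13 of 363 in uninjured 3, 28 of 651 in uninjured 4, 10 of 267 in uninjured 5 and 9 of 201 in uninjured 6. These shares ran from 2.04% (95% exact binomial interval 0.248 to 7.18) to 4.48% (2.07 to 8.33), a mean of 3.51% ± 0.910 (SD, n = 6), and the intervals of all 6 overlapped. Such intervals cover counting error only.

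After ONC no cell met the rule. The counts were 0 of 338 cells in injured 1, 0 of 273 in injured 2 and 0 of 577 in injured 3/4, which allow shares of up to 0.888%, 1.10% and 0.520% (3 counts of the total). The difference from uninjured retinas was -3.51 percentage points (exact two-sided permutation test over 6 and 3 samples, p = 0.0119, the smallest these samples can give). With each cell thinned to 8000 UMIs, which removes the difference in depth and leaves out 29 uninjured and 146 injured cells, the share was 1.34% ± 0.374 in uninjured and 0 in injured samples (same exact permutation test, p = 0.0119). Without cells that held 3 or more amacrine markers, 7 members were left and the difference was -0.887 percentage points (exact permutation test, p = 0.393). For a library, fewer cells of this kind and less Neurod2 RNA per cell cannot be told apart.

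The transcript itself fell over all cells. Neurod2 was at 14.5, 13.4, 15.6, 23.1, 15.4 and 15.2 CPM in uninjured 1 to 6, and at 0.878, 0.675 and 0.658 CPM in injured 1, 2 and 3/4. Every injured sample lay below every uninjured one, as did 20.9% of all 14218 genes tested. The log2 fold change was -4.46 ± 0.29 (SE), with an adjusted p of 3.77e-07 by edgeR's quasi-likelihood test, in a comparison where 22.8% of genes were lower and 21.5% higher. It was -2.81 without cells that held 3 or more amacrine markers (adjusted p = 0.00380). The injured value rests on 14 Neurod2 UMIs in 11 of 1188 cells, whereas 253 of 1683 uninjured cells held 1009. Among thinned cells the share with a Neurod2 UMI was 7.17% ± 1.54 in uninjured and 0.315% ± 0.309 in injured samples (p = 0.0119, exact permutation test over samples, two-sided). The injured share was 0.327% in injured 1, 0 of 251 cells in injured 2 and 0.619% in injured 3/4.

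**Figure D1:**
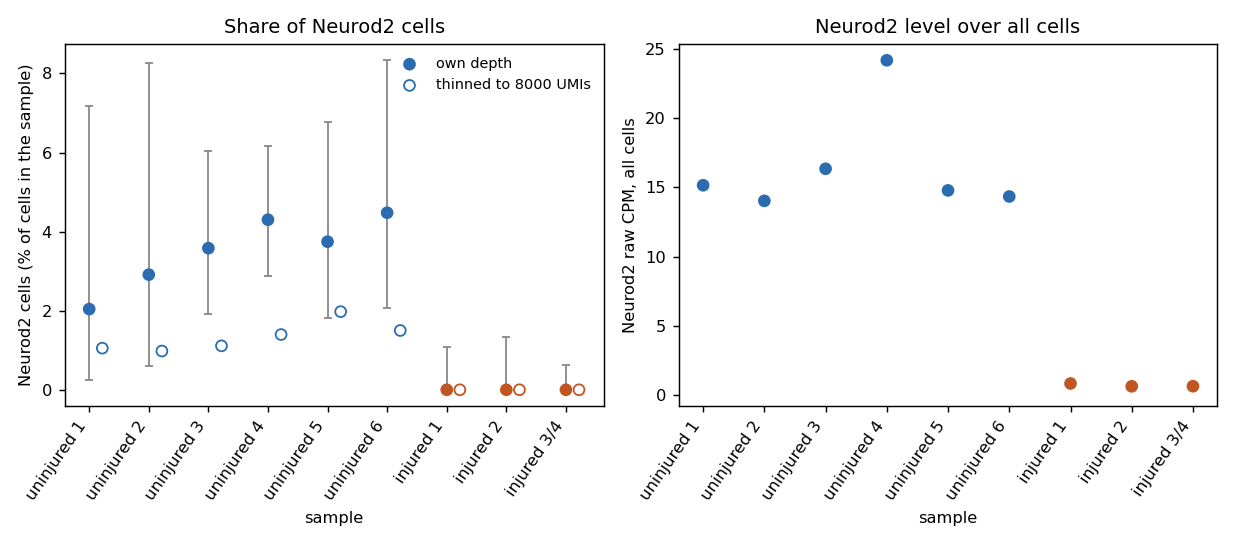
The left panel plots the share of cells that met the rule in each sample (%), filled at the cells' own depth with 95% exact binomial intervals and open after thinning to 8000 UMIs, and the right panel plots Neurod2 raw CPM over all cells. The 6 uninjured samples sit between 2.04 and 4.48% and between 14.0 and 24.2 raw CPM, and the 3 injured samples sit at 0% and under 1 raw CPM.

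To ask what else these cells shared, UMI counts were summed over Neurod2 cells and over all other cells of the same library in uninjured 3, 4, 5 and 6, which held 60 of the 65. Of 6619 genes tested, 614 (9.28%) differed, of which 229 (3.46%) were higher and 385 (5.82%) lower in Neurod2 cells (edgeR quasi-likelihood test with library as block, adjusted p up to 0.05). These include Neurod2, Foxp2 and Cartpt, which the rule used. Without them 228 of 6616 genes were higher and 383 lower. The other cells include the types that the rule excluded, so genes of those types can be lower by construction. Against the 621 other cells that met the same exclusions and held no Neurod2 UMI, 256 genes (3.87%) were higher and 429 (6.49%) lower, and 202 of the 229 and 340 of the 385 were called in the same direction. The 5 Neurod2 cells of uninjured 1 and 2 were not used in the fit. In these, 191 of the 228 genes not used by the rule (83.8%) stood higher and 363 of the 383 (94.8%) lower than in the other cells of their libraries, against 62.0% and 70.1% for all tested genes with a positive or negative fitted change.

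Penk rose with the smallest adjusted p-value among the 12 largest rises. It encodes the precursor of the enkephalin opioid peptides and sits at 4132722 to 4141856 of chromosome 4, reverse strand. It was at 269, 427, 505 and 526 CPM in Neurod2 cells of uninjured 3 to 6 and at 58.5, 60.5, 74.4 and 99.0 CPM in the other cells. Every library of Neurod2 cells lay above every one of the others (log2 difference 2.56 ± 0.12, edgeR adjusted p = 2.82e-17), and the difference was 2.59 against cells meeting the same exclusions. How many of all tested genes lay wholly above in this way was not counted.

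Prdm8, a transcriptional repressor of the PRDM family, had the largest rise of the 12. It was at 212, 252, 324 and 157 CPM in Neurod2 cells and at 25.7, 31.9, 11.7 and 15.6 CPM in the other cells (log2 difference 3.35 ± 0.30, adjusted p = 0.000444). Nfib, of the nuclear factor I family, was at 111 ± 57.1 against 14.6 ± 8.09 CPM (log2 difference 2.84 ± 0.20). Meis2, a homeodomain factor, was at 874 ± 205 against 238 ± 106 CPM (log2 difference 1.91 ± 0.14, and 2.66 against cells with the same exclusions). It also belongs to the amacrine marker list.

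Gal, the precursor of the peptide galanin, was at 108, 146, 95.7 and 167 CPM in Neurod2 cells and at 26.8, 22.3, 30.5 and 43.4 CPM in the others (log2 difference 2.23 ± 0.16, adjusted p = 2.54e-12). Prlr, the prolactin receptor, was at 206 ± 80.4 against 37.9 ± 22.8 CPM (log2 difference 2.42 ± 0.25, adjusted p = 0.000160). Inpp4b, an inositol polyphosphate phosphatase, had the highest level of the 12, at 1342 ± 239 against 418 ± 193 CPM (log2 difference 1.75 ± 0.17). Prex2, an exchange factor for the GTPase Rac, was at 70.0, 137, 21.3 and 39.3 CPM against 31.2, 26.5, 11.3 and 15.9, so its ranges overlapped between cell sets while each library kept the direction. Its log2 difference was 1.80 ± 0.21 (adjusted p = 9.83e-07). Kctd4 and Tll1 were also among the 12, with Kctd4, of the KCTD family of BTB domain proteins, at 87.6 ± 28.2 against 12.5 ± 1.53 CPM, and Tll1, which encodes a tolloid-like metalloprotease, at 160 ± 61.7 against 34.1 ± 8.30 CPM.

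The 12 largest falls were near absence in Neurod2 cells, with 0 to 21 counts over the 60 cells. Bnc2, a zinc finger protein gene, had 0 counts and was at 55.7 ± 18.3 CPM in the other cells, which makes it at least 39.3-fold lower against a floor of 3 counts over the 4 libraries. Ndst4, a heparan sulfate sulfotransferase gene, had 1 count against 85.1 ± 12.1 CPM, a ratio of 0.00555 (95% Poisson interval 0.000141 to 0.0309). Sox6, a transcription factor gene of the Sox family, had 2 counts against 89.1 ± 5.67 CPM, a ratio of 0.0106 (0.00128 to 0.0383). Irx4, of the Iroquois homeodomain family, had 1 count against 60.8 ± 8.02 CPM, a ratio of 0.00777 (0.000197 to 0.0433). Isl2, a LIM homeodomain gene, had 2 counts against 46.6 ± 19.1 CPM, a ratio of 0.0203 (0.00245 to 0.0732). Both Irx4 and Isl2 are used as markers of other RGC types.

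Gabrg3, a GABA-A receptor subunit gene, was at 5.68, 9.33, 31.9 and 9.83 CPM against 336, 345, 324 and 364 (log2 difference -5.00 ± 0.22, adjusted p = 4.68e-17). Tac1, the precursor of substance P, was at 5.99 ± 4.63 against 156 ± 52.4 CPM. No library of Neurod2 cells reached the lowest value of the other cells for either of these genes. The share of all tested genes that lay wholly below was not counted. Sdk2, a sidekick cell adhesion gene, and Hs3st4, another heparan sulfate sulfotransferase gene, each had 3 counts, ratios of 0.0278 (0.00574 to 0.0813) and 0.0262 (0.00541 to 0.0766). Igf1, a growth factor gene, and D130009I18Rik had 4 counts each against 98.3 ± 6.09 and 135 ± 47.8 CPM. The falls were of the same order against cells with the same exclusions, with log2 differences of -5.50 for Igf1, -4.87 for Gabrg3 and -4.31 for Tac1. Hs3st4 was not tested there.

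**Figure D2:**
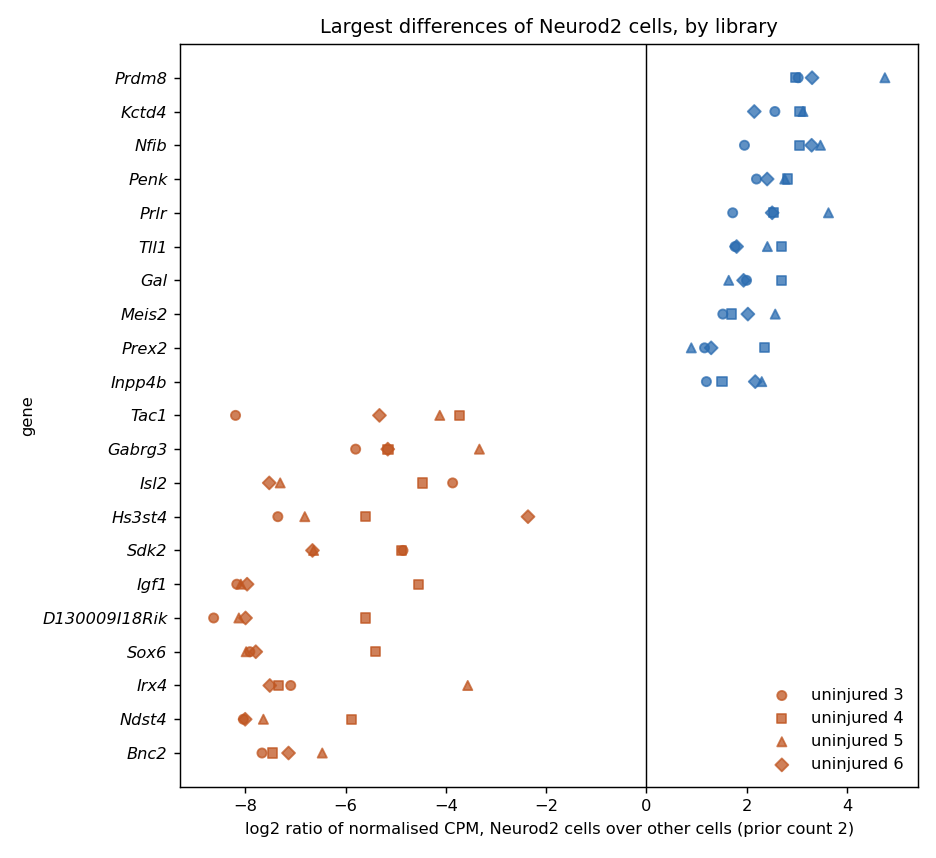
Each point is the log2 ratio of normalised CPM (prior count 2) of Neurod2 cells over the other cells of 1 library, for 10 of the 12 largest rises (blue) and 11 of the 12 largest falls (orange), one gene a row and one marker shape a library. All 4 libraries lie on the same side of 0 for each gene, which the choice of genes required, and the falls rest on 0 to 21 counts in Neurod2 cells and spread more widely than the rises.

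Of the 23 bHLH genes other than Neurod2 that were listed, 8 had enough counts, of which 4 rose and 2 fell, with a median log2 difference of 0.39 against 0.00 over all genes tested, of which 3.46% were higher and 5.82% lower. Neurod1, of the same family as Neurod2, was at 67.1 ± 13.0 against 21.7 ± 2.21 CPM (log2 difference 1.70 ± 0.17, adjusted p = 3.65e-09). Bhlhe22, a repressor of the Olig-related group, was at 47.1 ± 12.8 against 15.1 ± 5.26 CPM (log2 difference 1.56 ± 0.20). Tcf4, an E protein that pairs with other bHLH factors, was at 467 ± 96.3 against 159 ± 58.5 CPM (log2 difference 1.54 ± 0.12, adjusted p = 3.60e-12). Hes6 rose by less, with a log2 difference of 0.96 ± 0.22, and was higher in 3 of 4 libraries. The genes that fell were Id4, which encodes a protein that blocks bHLH dimers on DNA, at -0.77 ± 0.14, and Bhlhe41, at -0.77 ± 0.17.

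Of the 36 listed subclass markers not used by the rule, 16 were tested, 4 rose and 8 fell (median log2 difference -0.75), where 3.46% of all genes tested were higher and 5.82% lower. Penk, Prdm8 and Tfap2d were among the 4 that rose, the last named after its value was seen. Tfap2d, an AP-2 family factor that marks other RGCs too, had a log2 difference of 0.58 ± 0.15 against all other cells and 3.12 against cells with the same exclusions. Among the falls, Trarg1 was at 21.8 ± 7.31 against 217 ± 53.3 CPM and Calb1, a calcium-binding protein gene, at 14.2 ± 12.1 against 126 ± 33.4 CPM. All 18 listed RGC identity genes were tested, and 6 rose and 2 fell (median log2 difference 0.19), beside the same 3.46% and 5.82% of all genes. The POU domain factors Pou4f3 and Pou4f2 rose by 1.41 ± 0.16 and 0.85 ± 0.14 on the log2 scale, as did the Ebf3 factor by 0.95 ± 0.13. Nrn1, encoding the membrane-anchored growth factor neuritin, was at 737 ± 239 against 1240 ± 474 CPM (log2 difference -0.72 ± 0.10).

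Of 62 tested adhesion and guidance genes 5 rose and 25 fell, a median of -0.30 on the log2 scale, against 3.46% and 5.82% of all genes. The largest falls beside Sdk2 were Sdk1 (log2 difference -4.39 ± 0.22), Pcdh8 (-3.63 ± 0.30), Cdh12 (-3.62 ± 0.26), Ephb1 (-3.02 ± 0.22) and Cdh7 (-3.01 ± 0.30), which encode a sidekick protein, a protocadherin, cadherins and an ephrin receptor. The 5 that rose, named after their values were seen, were Pcdh19 (1.34 ± 0.13), Pcdh9 (0.82 ± 0.16), Ntng1 (0.70 ± 0.11), Cdh8 (0.63 ± 0.18) and Alcam (0.50 ± 0.15). Against cells with the same exclusions, Cdh8 stood at 0.01 and Alcam at 0.08 and neither passed the test.

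Of 33 tested transmitter receptor genes 2 rose and 12 fell (median -0.15), against 3.46% and 5.82% of all genes, and against cells with the same exclusions 1 rose and 10 fell. Beside Gabrg3, the AMPA receptor gene Gria1 had a log2 difference of -2.86 ± 0.24, the glycine receptor genes Glra3 and Glra2 of -1.46 ± 0.23 and -1.45 ± 0.30, and the NMDA receptor gene Grin2a of -1.15 ± 0.14. Chrm2, a muscarinic acetylcholine receptor gene, rose, at 57.9 ± 39.1 against 25.3 ± 5.85 CPM, and was higher in 3 of 4 libraries. Of 33 voltage-gated channel genes 4 rose and 9 fell (median -0.10), against the same shares of all genes, 3.46% and 5.82%. The potassium channel gene Kcnq3 rose by 1.09 ± 0.11, at 356 ± 108 against 165 ± 55.6 CPM. Kcnd2 fell, at 389 ± 174 against 856 ± 170 CPM (log2 difference -1.14 ± 0.12), as did Kcnc4 and the calcium channel genes Cacna1c, Cacna2d2 and Cacna1d (-0.97, -0.80, -0.75 and -0.71).

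Of 24 neuropeptide and calcium-binding protein genes 5 rose and 11 fell (median -0.53), with Penk and Gal the largest rises, where 3.46% of all genes tested were higher and 5.82% lower. Adcyap1, the precursor of PACAP, was at 11.8 ± 6.50 against 44.3 ± 8.57 CPM (log2 difference -2.10 ± 0.28), and Ppp1r17 had a log2 difference of -1.50 ± 0.28. Of 13 tested axon injury response genes, Gal rose and Adcyap1 fell, and 11 did not pass the test (median -0.18), 1 gene each way where 3.46% and 5.82% of all genes were called. Adcyap1 was not tested against cells with the same exclusions. Ier3 alone passed among 8 tested immediate early and dissociation stress genes, with a log2 difference of -1.18 ± 0.19. The Vo sector of the V-ATPase, the proton channel that the study is about, was also followed. Of 9 tested Vo and accessory genes 3 rose and 0 fell, against 3.46% and 5.82% of all genes, and 3 rose against cells with the same exclusions. Atp6ap1, Rnasek and Atp6v0e2 rose by 0.38 ± 0.12, 0.35 ± 0.10 and 0.34 ± 0.11 on the log2 scale, with adjusted p-values of 0.0375, 0.0228 and 0.0438 from edgeR. Atp6v0c, the main subunit of the proton ring, was at 2356 ± 523 against 2253 ± 600 CPM, a log2 difference of 0.08 ± 0.10 that did not pass (adjusted p = 0.748), and Atp6v0e stood at -0.06 ± 0.23 (adjusted p = 0.937).

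Counted cell by cell after thinning to 8000 UMIs, 7 of 77 tested markers reached the threshold in a larger share of Neurod2 cells than of other cells with the same exclusions (here also those with some Neurod2) in 4 of 4 libraries, and 18 in a smaller share. The share of all genes with either pattern was not counted. Some of the 18 were rare in the other cells too, such as Lmo2 (1.35%), Igfbp2 (1.76%) and Tbx20 (3.15%). For such markers 0 positive cells were likely among so few Neurod2 cells, so their smaller share says little. Penk, Prdm8, Tcf4, Ebf3, Pou4f2 and Pou4f3 were among the 7. At the cells' own depth Ebf3 was not higher in uninjured 3 (61.5% against 62.0%). With all 6 uninjured libraries Tcf4 was not higher in uninjured 1 (50% against 52.8%). Penk, Prdm8, Pou4f2 and Pou4f3 were higher in every library under both settings. Penk was positive in 57.5% ± 8.55 of Neurod2 cells and 16.7% ± 3.70 of the others (SD, n = 4), Prdm8 in 47.7% ± 21.1 and 5.50% ± 1.56, and Tcf4 in 81.5% ± 18.6 and 31.4% ± 12.2. With 4 libraries the exact two-sided sign-flip test cannot go below p = 0.125 (adjusted p = 0.385), so no marker could pass it. Trarg1 was positive in 0% of Neurod2 cells and in 44.8% ± 6.32 of the others.

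Cells outside the rule were sorted by their Neurod2 UMIs, which the rule used, so their shares are pooled over libraries and given without a test. At their own depth, Penk was positive in 47 of 65 Neurod2 cells (72.3%). Of 42 cells that met the exclusions with 2 or more Neurod2 UMIs but under 1 per 10000, 27 (64.3%) were positive for Penk, at a median of 43965 UMIs per cell. It was positive in 19 of 32 cells with 1 Neurod2 UMI (59.4%) and in 91 of 728 cells with none (12.5%), at medians of 29865 and 25910 UMIs per cell. These sets thus differed in depth, and its part in the shares was not tested. Prdm8 went from 50 of 65 (76.9%) through 26 of 42 (61.9%) and 15 of 32 (46.9%) to 17 of 728 (2.34%). Tcf4 was positive in 64 of 65 (98.5%), 42 of 42, 28 of 32 (87.5%) and 381 of 728 (52.3%). Meis2 was positive in 51 of 65 (78.5%), 27 of 42 (64.3%), 25 of 32 (78.1%) and 96 of 728 (13.2%), so neither Tcf4 nor Meis2 fell at every step. The 49 cells over the Neurod2 threshold that the rule excluded were positive for Penk in 16 (32.7%) and for Prdm8 in 21 (42.9%). Of these 49 cells, 46 (93.9%) were positive for Tcf4 and 32 (65.3%) for Meis2.

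The 65 cells were not of one kind. Penk was positive in 47 and not in the other 18. These 18 cells were found in 5 libraries, with 1, 5, 6, 3 and 3 in uninjured 2 to 6. Slc17a7, a second vesicular glutamate transporter, was positive in 7 of these 18 cells and in 0 of the 47 with Penk, where it had 0 UMIs. The 7 cells came from uninjured 3 (4 cells), uninjured 5 (2) and uninjured 4 (1). Among the 18 but under the threshold, a cell of uninjured 4 held 6 Slc17a7 UMIs (0.975 per 10000) and another held 4 (0.867). A cell of uninjured 2 held 1. Slc17a7 was otherwise rare, with 4 of 1618 other uninjured cells positive (0.247%), and this protein-coding gene sits at 44813305 to 44825644 of chromosome 7, forward strand.

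Gal and Pvalb, a calcium-binding protein gene, were positive in more of the cells with Penk. Gal was positive in 24 of the 47 cells with Penk (51.1%) and in 1 of the 18 without, and Pvalb in 26 (55.3%) and 1. In raw CPM over the cells of each set, Gal was at 161 and 11.3 and Pvalb at 128 and 93.4. Jam2, a junctional adhesion gene, was positive in 24 and 1. Prdm8 was positive in 40 of 47 (85.1%) and 10 of 18 (55.6%), and Meis2 in 35 (74.5%) and 16 (88.9%). Tfap2d, used for another RGC group, was positive at a like share in both, in 13 of 47 (27.7%) and 5 of 18 (27.8%). This division was drawn from the values of the same cells, so it is given without a test.

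**Figure D3:**
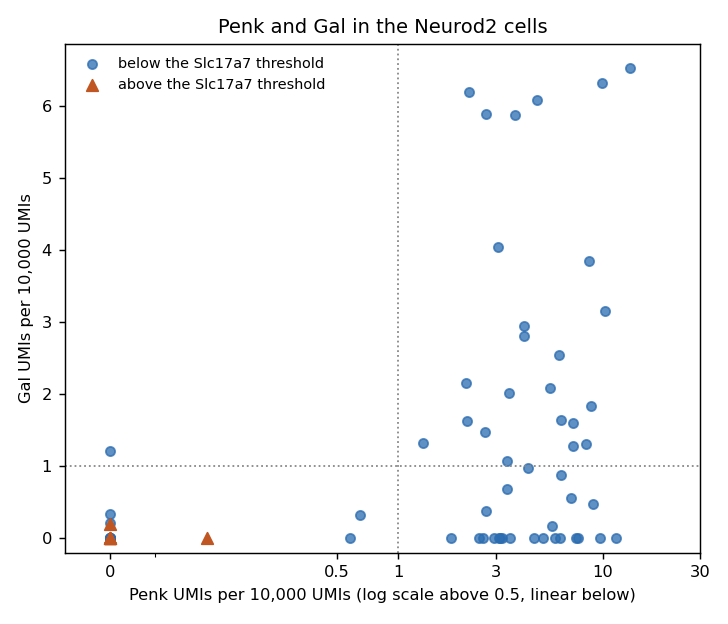
Each point is 1 of the 65 Neurod2 cells, with Penk UMIs per 10000 on the horizontal axis (logarithmic above 0.5 and linear below) and Gal UMIs per 10000 on the vertical axis, and dotted lines mark 1 per 10000. The 47 cells with Penk lie to the right of the vertical line, with 24 of them positive for Gal, and the 7 cells over the Slc17a7 threshold (triangles) all lie among the 18 to its left.

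Since no injured cell met the rule, Neurod2 cells could not be compared between conditions directly. The 12 genes with the largest rises were therefore followed over all cells of a library, in the comparison that shares its uninjured libraries with the one above. Of the 12, 5 were lower and 2 higher after ONC (median log2 fold change -0.63), against 22.8% and 21.5% of all genes. The 12 were chosen for high values in uninjured cells of these libraries. The counts and p-values given here are thus not independent of that choice and serve as a description. The values of these genes were spread widely. Prlr fell by 4.52 ± 0.55 on the log2 scale (40.5 ± 17.7 CPM in uninjured and 1.61 ± 1.24 in injured samples, adjusted p = 4.29e-05). Tll1 fell by 2.92 ± 0.27 and Prdm8 by 2.73 ± 0.33, and the injured samples of these 3 genes, which are among 4 such genes of the 12, all lay below the uninjured ones, as for 20.9% of all genes. Penk was at 77.0 ± 30.7 and 80.0 ± 18.3 CPM and did not pass (log2 fold change 0.05 ± 0.33, adjusted p = 0.909). Gal rose by 3.35 ± 0.36 and Inpp4b by 1.17 ± 0.27.

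Among the bHLH genes, Neurod1 also fell over all cells, to 7.68 ± 1.73 CPM in injured samples (log2 fold change -1.75 ± 0.24, adjusted p = 0.000104), and Bhlhe22 had a log2 fold change of -1.37 ± 0.34. Tcf4 was at 178 ± 52.2 CPM in uninjured and 246 ± 21.5 in injured samples and did not pass (adjusted p = 0.128). Of 15 tested bHLH genes 9 were lower and 2 higher after ONC, and of 34 subclass markers 18 were lower and 2 higher, against 22.8% and 21.5% of all genes.

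Injured cells with Penk were present. They numbered 137 of 1188 (11.5%), namely 39, 34 and 64 in injured 1, 2 and 3/4, against 241 of 1683 (14.3%) in uninjured retinas. In these uninjured cells Neurod2 was at 84.2, 141, 47.8, 76.0, 41.5 and 46.4 raw CPM in libraries 1 to 6, and 119 of the 241 held a UMI. In the injured cells it was at 0, 1.32 and 0.992 raw CPM, from 2 UMIs of 2497456. No injured sample reached the lowest uninjured one, as for 13.3% of 14218 genes in these cells. Pooled by condition the level was 63.8 (95% exact Poisson interval 58.4 to 69.6) against 0.801 (0.0970 to 2.89), intervals that cover counting error only. Thinned to 8000 UMIs, 64 of 241 uninjured cells (26.6%, exact interval 21.1 to 32.6) and 1 of 130 injured cells (0.769%, 0.0195 to 4.21) held a Neurod2 UMI. These intervals pool cells over samples and also cover counting error only. Penk was called at the cells' own depth, so the choice of cells was not matched for depth. Penk was chosen after its values in Neurod2 cells had been seen, only 47 of the 241 uninjured cells were Neurod2 cells, and whether the injured cells are of the same types was not tested, so no test is given.

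Levels of the other genes were compared between uninjured and injured cells with Penk. Penk, which selected them, was at 557 ± 146 raw CPM in uninjured (SD, n = 6) and 541 ± 21.2 in injured samples (n = 3), and Inpp4b at 788 ± 318 and 859 ± 73.3, both with overlap. Prdm8 ranged from 96.9 to 199.8 in uninjured and from 5.29 to 14.9 in injured samples, and Prlr from 46.2 to 229 and from 0 to 3.97. Meis2 was at 622 ± 232 and 131 ± 70.4. Kctd4 and Tll1 were lower too, and for Prdm8, Prlr, Meis2, Kctd4 and Tll1 no injured sample reached the lowest uninjured one, as for 13.3% of 14218 genes in these cells. Prex2 ranged from 9.23 to 159 and from 4.09 to 29.8, with overlap. Nfib was at 78.6 ± 36.8 and 27.2 ± 23.3, with overlap. Gal was at 67.0 ± 31.7 in uninjured samples and at 120 to 1343 in injured ones, all above the uninjured. How many of all genes lay wholly above in these cells was not counted. Of the general RGC markers, Rbpms was at 670.5 ± 82.9 and 239 ± 42.7 without overlap, and Slc17a6 was at 532 ± 143 and 485 ± 134 with overlap. Atf3, a transcription factor gene induced by axon injury, was at 1.06 ± 1.72 in uninjured and 935 ± 81.6 in injured samples.

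**Figure D4:**
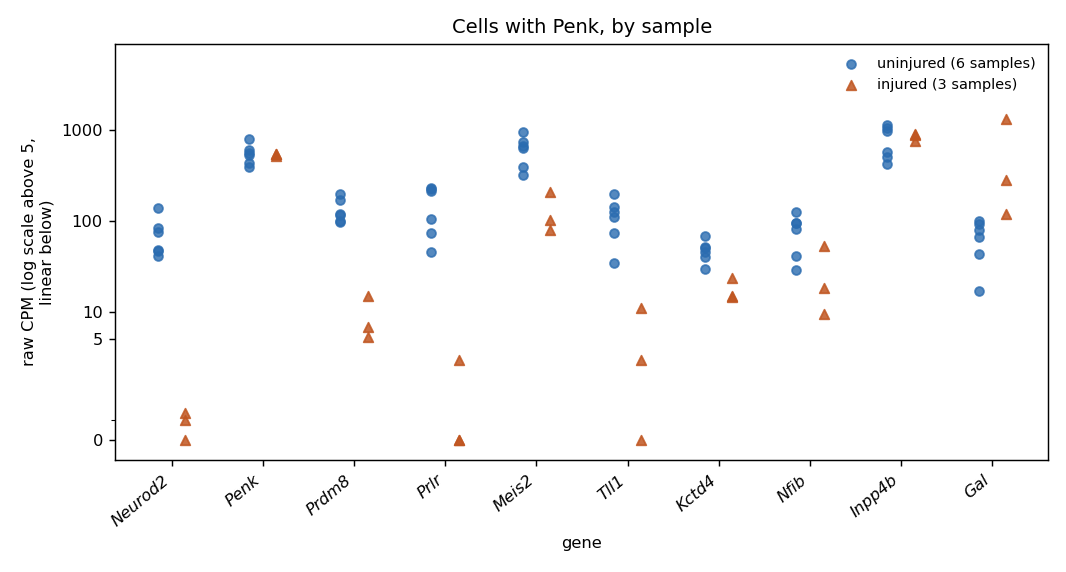
Each point is the level in 1 sample (raw CPM, logarithmic above 5 and linear below) summed over its cells with Penk, for 6 uninjured samples (circles) and 3 injured samples (triangles). Neurod2 lies between 41.5 and 141 in uninjured and between 0 and 1.32 in injured samples, whereas Penk and Inpp4b overlap between conditions.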

How the data were processed

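The authors aligned reads with Cell Ranger 7.0.1 (per the labels) to mm39, kept the RGCs, and the deposited values are UMI counts of 34254 genes in each cell, not normalized. The paper names another kit, sequencer and Cell Ranger version than the labels, and the sample labels were followed. Doublets were not called. UMI counts were summed per library with Python 3.11.15, scipy 1.17.1 and pandas 2.3.3, and tested in R 4.3.3 with edgeR 4.0.16 (TMM factors, robust quasi-likelihood fit, Benjamini-Hochberg adjustment at 0.05). Neurod2 cells were compared with other cells within library, in libraries with at least 5 members, for genes that reached the CPM of 10 counts in a median Neurod2 column in at least as many columns as libraries. Conditions were compared over all cells with filterByExpr. The planned comparison of injured with uninjured Neurod2 cells and its interaction could not be fitted, because no injured cell met the rule. SE was derived from the log2 change and F statistic. Both fits were tested on simulated data. Alternatives were DESeq2 1.42.0, limma 3.58.1 (voom), other factors, filters, thresholds and cell sets, and each library left out. Precision is limited by 202323 to 1129849 UMIs per library in the Neurod2 cells used.

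Named genes were the 12 largest rises and 12 largest falls past the threshold with average log2 CPM of at least 5 and the same direction in every library, up to 6 past the threshold per list, and 4 Vo genes. The members and gene lists were chosen with earlier results of these data known. Floors were set at 3 counts and intervals at 95%. Some named genes are not reported here.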

Additional observations from a re-analysis of the deposited data

Results flagged for a closer look

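Uninjured 4 stood apart from the other 5 uninjured libraries in Neurod2 over all cells, at 24.2 raw CPM against 14.0 to 16.3, and at 23.1 against 13.4 to 15.6 CPM. It was also the library with the most cells and the highest median depth. Among the 12 largest falls, the log2 ratio of Sox6 was -5.39 in uninjured 4 against -7.98 to -7.79 in the other libraries, and that of Igf1 was -4.55 against -8.17 to -7.96. That of Irx4 was -3.56 in uninjured 5 against -7.51 to -7.09. Each of these 3 ratios rests on 1 to 4 counts in Neurod2 cells and 0 in the other libraries. With 42 groups of 4 or 6 samples examined and about 5% set apart by chance, 5 were found.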

How the results depend on the processing

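In Neurod2 cells 229 genes were higher and 385 lower. The counts were 144 and 185 with at least 10 counts in every Neurod2 column (143 and 150 of them shared), 83 and 109 (70 and 102 shared) with cells thinned to 8000 UMIs (2016 genes tested), and 52 and 97 without library as a block. Lower genes numbered 256 with DESeq2, 662 with no filter on low counts and 241 with all 6 uninjured libraries, and higher genes 133 with similar libraries summed, the last pair of settings being chosen after seeing the data. Leaving out 1 library gave 97 to 243 higher and 186 to 442 lower genes, and the lowest of both (97 and 186) came without uninjured 4, which held 28 of the 60 cells. The share of Neurod2 cells differed by -0.887 percentage points (p = 0.393, exact permutation test) without cells holding 3 amacrine markers, by -1.34 after thinning (p = 0.0119), and by -3.80 to -3.32 without 1 sample. Markers positive in a larger share in every library rose from 7 to 14 at the cells' own depth and were 9 to 11 without 1 library, and those in a smaller share went from 18 to 11 with all 6 libraries and were 19 to 21 without 1 library. Of 1020 values of 60 named genes past the threshold, 961 kept direction and threshold, 59 kept direction alone, 22 of these without library as a block, and 0 reversed. With at least 10 counts in every Neurod2 column, 26 of the 60 kept direction and threshold and 3 direction alone, and after thinning 21 and 3. The rest were not tested there, and the 12 largest falls held too few counts for the first of these settings. The genes were chosen by the main fit and most settings reuse its cells, so agreement was likely beforehand. Of the 12 largest rises 11 and of the 12 largest falls 12 passed under every setting that tested them, Prex2 being the exception (edgeR adjusted p = 0.0689 without library as a block). The other genes behind the 59 values are not named here, so some calls within the gene lists did not hold under every setting. Atp6v0e, not past the threshold, turned to 0.031 with at least 3 Neurod2 UMIs and was 0.10 without uninjured 5 and -0.15 without uninjured 6, and was not tested without uninjured 3 or 4. The cause of these shifts was not tested.

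In all cells, the Neurod2 log2 fold change was -4.32 with a replicate block over libraries 1 to 3 of each condition (adjusted p = 2.86e-06) and -4.31 without the block, and -4.59 to -4.30 without 1 sample. The numbers name samples only: deviations of same-numbered libraries correlated at -0.04, 0.02 and -0.03. Leaving out cells with 3 amacrine markers was not run for the comparison with other cells, because no library kept 5 members, and neither were injured libraries alone. For that comparison, uninjured libraries alone and injured 4 left out equal the reported fit, since every member was uninjured. Depth limits genes under about 10 counts in Neurod2 cells, and the injured shares to the floors given.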
